A study of Mus musculus with 12 samples.

Results

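The Myc, Max and Mxd network is a family of transcription factors that share partners and a DNA site. It was followed here in bone marrow-derived macrophages, which are grown in culture from mouse marrow. The network was taken as the 10 genes Myc, Mycl, Max, Mxd1, Mxd3, Mxd4, Mxi1, Mnt, Mlx and Mga, matched by symbol to the 50559 gene rows of a count table. All 10 were found, and all 10 were among the 13530 genes that passed the filter on low counts and were tested. The cells came from C57BL/6 mice, and were exposed for 1 h to the allergen of house dust mites (HDM, 6 libraries) or to vehicle (6 libraries). The labels name no mutant allele and no second agent in either group, and the comparison asks which transcripts the allergen changes within that hour. Whether a group's libraries stem from different animals or cultures is not said, and the p-values therefore reflect library-to-library spread alone, which may be technical.

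MAX is the hub of the network: MYC and its relative MYCL bind DNA as pairs with MAX and activate genes of growth and metabolism. The MXD proteins (MXD1, MXI1, MXD3 and MXD4) and MNT also pair with MAX, recruit SIN3 corepressor complexes and repress genes through the same sites, called E-boxes. MLX is a parallel partner that joins the glucose-sensing factor MondoA (gene Mlxip) and also binds MNT and some MXD proteins, while MGA pairs with MAX inside a Polycomb repressor complex. In macrophages and other cells Myc is an early response gene whose mRNA is short-lived.

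Counted reads per library ran from 19.76 M to 119.71 M with HDM and from 19.69 M to 62.41 M with vehicle. Libraries numbered 5 and 6, of both treatments, stood apart from the other 8 along the first principal component (41.0% of the variance). The changes of Myc, Mxd1 and Mnt are therefore also given without libraries 5 and 6. All 10 macrophage markers examined were tested, and their summed level was 18212 to 21802 counts per M reads (CPM) with HDM and 17162 to 21503 CPM with vehicle; Cd14 alone among them was called, and it was higher with HDM. The 8 dendritic cell markers summed to at most 1.22 CPM with HDM and 0.970 CPM with vehicle, and the 9 neutrophil markers to at most 6.58 CPM with HDM and 6.64 CPM with vehicle. The 8 lymphocyte markers stayed at or under 0.133 CPM with HDM and 0.213 CPM with vehicle, and the 6 mast cell and basophil markers at or under 0.0502 CPM with HDM and 0.0475 CPM with vehicle. Retnlg, Mcpt8, Tpsb2, Ms4a2 and Fcer1a had 0 reads in every library. The 6 markers of stroma and endothelium summed to 1.85 to 4.87 CPM with HDM and 2.74 to 6.61 CPM with vehicle. The erythroid and megakaryocyte markers summed to 103 to 197 CPM with HDM and 97.0 to 186 CPM with vehicle. Of these, Hbb-bt and Hba-a1 had 0 reads, and Pf4 at a mean of 156 CPM made up most of the sum. The part of these markers in the results was not tested.

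The edgeR quasi-likelihood test, with Benjamini-Hochberg adjustment over all tested genes, called 3 of the 10 network genes: Myc and Mxd1 rose and Mnt fell. Over all tested genes it called 5.37%, with 2.90% higher and 2.47% lower after HDM. The same 3 genes were those whose HDM and vehicle libraries did not overlap, which held for 2.31% of all tested genes with HDM higher and 2.07% with HDM lower. With the library number as a block, 4 of 10 were called, the fourth being Mxd4, at a lower level with HDM, against 14.7% of all tested genes (7.90% higher and 6.81% lower). An unadjusted p under 0.05 was reached by 4 of 10 network genes and 14.0% of all tested genes. The median log2 fold change was 0.03 over the 10 genes and -0.005 over all tested genes.

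**Figure D1:**
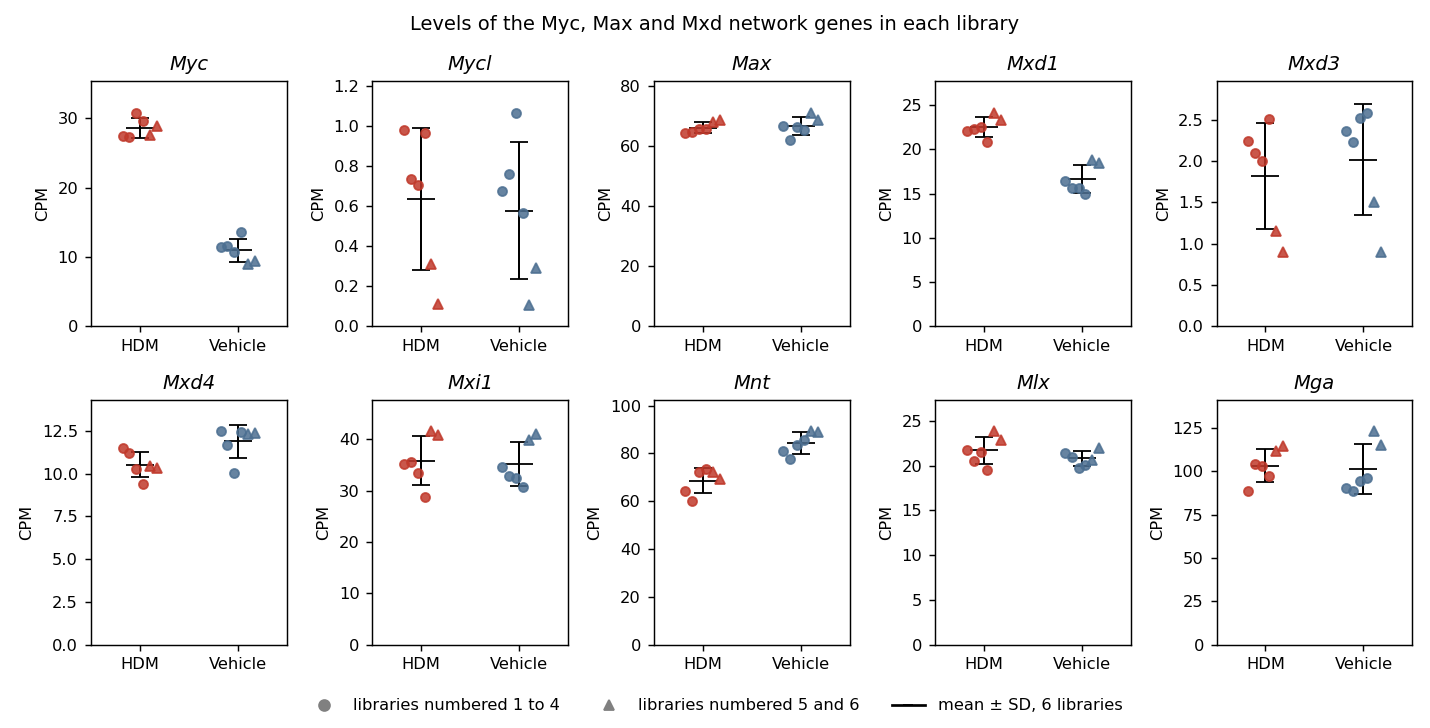
CPM (vertical axis, from 0) of each of the 10 network genes in the HDM libraries (left, red) and the vehicle libraries (right, blue); each point is 1 library, triangles are libraries numbered 5 and 6, and the black mark with bars is the mean ± SD of 6. For Myc, Mxd1 and Mnt the 2 groups do not overlap, while Mycl and Mxd3 are low in the triangles of both groups.

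Myc encodes the activator of the network and had the largest change in it. Its level was 27.3 CPM in the lowest HDM library, 28.2 at the median and 30.8 in the highest, against 8.91, 11.1 and 13.6 CPM in the vehicle libraries. Every HDM library lay above every vehicle library, and the relative spread was smaller with HDM, at an SD of 4.92% of the mean, than with vehicle, at 15.5%; that difference in spread was not tested. The log2 fold change of 1.38 ± 0.09 SE is a 2.60-fold rise (95% interval 2.28 to 2.96, edgeR adjusted p = 3.75e-07), which rests on 613 to 3304 reads per HDM library and 172 to 729 per vehicle library. Of the 13530 tested genes, 87 had a larger log2 fold change. The gene lies at chr15:61985391-61990374 on the plus strand (GENCODE M21, GRCm38).

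Between libraries of equal number, Myc was higher with HDM in 6 of 6 numbers, by 1.12 to 1.63 on the log2 CPM scale. Numbers 5 and 6 showed 1.63 and 1.61, and numbers 1 to 4 showed 1.26, 1.24, 1.52 and 1.12. Fitted apart, the log2 fold change was 1.61 in numbers 5 and 6 (2 libraries a group, edgeR adjusted p = 9.14e-21). It was 1.28 in numbers 1 to 4 (edgeR adjusted p = 4.81e-08). Libraries 5 and 6 were close within each group (chi-square per gene of 3.56 with HDM and 2.92 with vehicle, where 1 is counting error alone). The small p-value thus reflects a narrow spread that may be technical, here and for Mxd1 and Mnt in these numbers below. The vehicle level is itself part of each fold change. It was 8.91 and 9.44 CPM in vehicle libraries 5 and 6 and 10.7 to 13.6 CPM in vehicle libraries 1 to 4. The HDM libraries overlapped, at 27.6 and 28.8 CPM in numbers 5 and 6 and 27.3 to 30.8 CPM in numbers 1 to 4. The difference between the 2 effects was 0.33 ± 0.12 SE on the log2 scale and was not called (edgeR adjusted p = 0.792). That edgeR test of the difference called 0 of 10 network genes, Myc being the one with an unadjusted p under 0.05, and it called 0.0813% of all tested genes.

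Mycl, the relative of Myc that is typical of dendritic cells, was near the limit of detection. It had 0.112 CPM in the lowest HDM library, 0.718 at the median and 0.980 in the highest, against 0.104, 0.619 and 1.06 CPM in the vehicle libraries, from 4 to 118 reads with HDM and 2 to 48 with vehicle. The groups overlapped over almost their whole range. The log2 fold change was 0.10 with a 95% interval of -0.91 to 1.11 (edgeR adjusted p = 1), or 0.534-fold to 2.16-fold. With the library number as a block the interval was -0.34 to 0.68. Mycn, the third family member, had 3 reads in all HDM libraries and 2 in all vehicle libraries and was not tested.

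Max encodes the shared partner, and its HDM effect had the narrowest interval of the 10. It had 64.5 CPM in the lowest HDM library, 65.7 at the median and 68.8 in the highest, against 62.3, 66.7 and 71.1 CPM in the vehicle libraries. The HDM range lay inside the vehicle range. The log2 fold change was -0.01 with a 95% interval of -0.09 to 0.06 (edgeR adjusted p = 1), which limits any change of Max to 0.943-fold to 1.04-fold at that confidence.

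Mxd1, which encodes the repressor that often replaces MYC on MAX as cells stop dividing and differentiate, rose together with Myc. It had 20.8 CPM in the lowest HDM library, 22.4 at the median and 24.1 in the highest, against 14.9, 16.0 and 18.8 CPM in the vehicle libraries. No vehicle library reached the lowest HDM library. The rise was 1.36-fold (95% interval 1.24 to 1.49, log2 fold change 0.44 ± 0.06 SE, edgeR adjusted p = 0.000705) and was seen in 6 of 6 numbers, by 0.34 to 0.53 on the log2 scale. It was 0.36 in numbers 5 and 6 alone (adjusted p = 0.000202) and 0.49 in numbers 1 to 4 alone (2.17e-05). The gene lies at chr6:86647042-86669161 on the minus strand (GENCODE M21, GRCm38).

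Mnt encodes the broadly expressed MAX partner that holds MYC targets in check in resting cells, and it fell. It had 59.9 CPM in the lowest HDM library, 70.8 at the median and 73.3 in the highest, against 77.6, 84.5 and 89.2 CPM in the vehicle libraries. The highest HDM library stayed below the lowest vehicle library, and HDM libraries 1 and 2 were the lowest of all. The fall was to 0.814-fold (95% interval 0.751 to 0.882, log2 fold change -0.30 ± 0.05 SE, edgeR adjusted p = 0.0046), with 1443 to 7750 reads per HDM library and 1723 to 4904 per vehicle library. It was seen in 6 of 6 numbers (-0.37 to -0.20 on the log2 scale), at -0.33 in numbers 5 and 6 alone (adjusted p = 1.11e-07) and -0.28 in numbers 1 to 4 alone (0.0101). The gene lies at chr11:74830920-74845725 on the plus strand (GENCODE M21, GRCm38). In RNA from whole cultures, fewer cells that express a gene and less RNA per cell cannot be told apart.

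Mxd4, another MXD repressor, was lower with HDM by less than the first test could call. It had 9.40 CPM in the lowest HDM library, 10.4 at the median and 11.5 in the highest, against 10.02, 12.3 and 12.5 CPM in the vehicle libraries. The groups overlapped through vehicle library 3, which at 10.02 CPM lay far below the other 5. The log2 fold change was -0.17 ± 0.07 SE (edgeR adjusted p = 0.216, and 0.0447 with the library number as a block), a call that was lost when the blocked fit used neighbouring numbers summed (0.0719), and 5 of 6 numbers showed the lower value with HDM. Without vehicle library 3 it was -0.22 (adjusted p = 0.0522).

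Mxi1 and Mxd3, the remaining MXD genes, were not called. Mxi1 had 28.7 CPM in the lowest HDM library, 35.3 at the median and 41.5 in the highest, against 30.7, 33.7 and 40.9 CPM in the vehicle libraries. Its log2 fold change was 0.03 with a 95% interval of -0.18 to 0.24 (edgeR adjusted p = 1), and the ranges of the groups overlapped. Mxd3, whose mRNA is typical of cells in S phase, had 0.893 CPM in the lowest HDM library, 2.05 at the median and 2.51 in the highest, against 0.896, 2.30 and 2.59 CPM in the vehicle libraries. Its value was lower with HDM in 6 of 6 numbers, with differences of -0.39 to -0.002 on the log2 scale, and the log2 fold change was -0.16 with a 95% interval of -0.78 to 0.47 (edgeR adjusted p = 0.987, and 0.482 with the block).

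**Figure D2:**
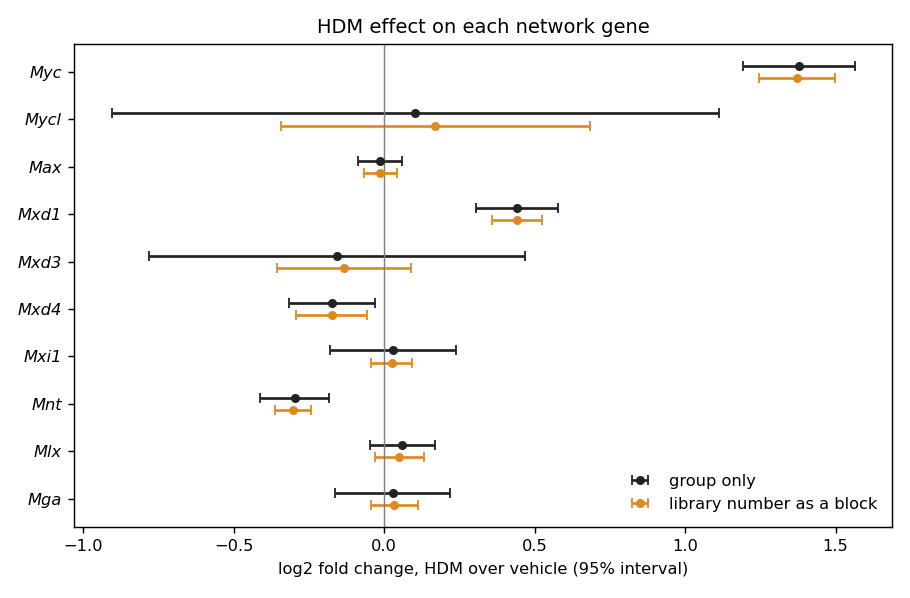
Log2 fold change of each network gene, HDM over vehicle (horizontal axis), with its 95% interval, from the fit with group only (black) and with the library number as a block (orange). Myc at 1.38, Mxd1 at 0.44 and Mnt at -0.30 lie clear of 0 in both, and Mxd4 lies at -0.17. Max has the narrowest interval in both fits.

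Since the proteins bind E-boxes, the bases before each gene's start were searched for the E-box letters CACGTG, which read the same on both strands. The set of RefSeq (GRCm38.p6) start windows used here covered 9 of the 10 genes and lacked Myc. Of these 9, 3 (Mnt, Mxd4 and Mlx) hold the letters in the 250 bases before a start. Of all 32851 RefSeq windows of that length, 6.02% hold them. That share counts windows, whereas 3 of 9 counts genes, and the 9 genes have 11 windows. Counted from the start that ends each window, the letters begin 123 bases before it in Mnt, 219 in Mxd4 and 40 in Mlx. That start is not the outermost RefSeq start in Mnt and Mlx. In Mnt the outermost start falls at the end of the E-box, and in Mlx the whole E-box lies inside the RefSeq gene span. Of the 3 genes, Mnt fell, Mxd4 was called lower only in the fit with the block, and Mlx was not called. The window of Mxd1, which rose, holds no E-box letters, and none of the 9 genes holds the AP-1 letters TGANTCA (6.75% of all windows, either strand) or the CRE letters TGACGTCA (1.55%). A match describes the letters and does not show binding. The windows that carry the E-box are printed here because they hold the family's own binding letters, 5′ to 3′ on the gene's strand, with the E-box in capitals: for Mnt (chr11:74830674-74830817, plus strand) up to 12 bases past the outermost RefSeq start, for Mxd4 (chr5:34187711-34187960, minus strand) in full, and for Mlx (chr11:101087238-101087267, plus strand) 12 bases on each side, as its window reaches into the RefSeq gene span.
Mnt: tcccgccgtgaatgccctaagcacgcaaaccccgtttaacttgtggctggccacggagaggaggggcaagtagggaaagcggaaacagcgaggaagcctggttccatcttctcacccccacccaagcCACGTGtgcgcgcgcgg
Mxd4: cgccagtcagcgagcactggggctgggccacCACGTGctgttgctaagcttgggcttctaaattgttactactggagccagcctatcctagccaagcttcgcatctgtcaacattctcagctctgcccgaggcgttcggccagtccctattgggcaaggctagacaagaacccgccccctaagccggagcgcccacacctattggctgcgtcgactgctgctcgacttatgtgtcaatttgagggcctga
Mlx: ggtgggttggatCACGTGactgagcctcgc

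Mlx, the partner of MondoA, had 19.5 CPM in the lowest HDM library, 21.7 at the median and 23.8 in the highest, against 19.8, 20.8 and 22.0 CPM in the vehicle libraries. Mga, which encodes a large protein with a T-box beside its MAX-binding region, had 88.7, 103 and 115 CPM in the HDM libraries, against 88.9, 95.2 and 123 CPM in the vehicle libraries. Both genes overlapped between the groups over most of their range. Their log2 fold changes were 0.06 (95% interval -0.05 to 0.17, edgeR adjusted p = 0.779) for Mlx and 0.03 (-0.16 to 0.22, adjusted p = 1) for Mga. Exons of Mlx, Mxd3, Mxd4 and Mxi1 overlap exons of a gene on the other strand in GENCODE M21 (Psmc3ip, Prelid1, Gm42846 and Gm10197), over 385, 105, 514 and 194 bases. The library kit keeps strand, per the labels, but the strand setting of the counting is not stated, and reads of the partner gene in these 4 values cannot be told apart.

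Within a library, the ratio of reads of 2 network genes does not depend on the scaling between libraries. The log2 ratio of Myc to Max was -1.21 ± 0.08 in HDM libraries and -2.62 ± 0.27 in vehicle libraries (SD, n = 6 each), a 2.66-fold higher ratio, while that of Mxd1 to Max was -1.56 ± 0.05 with HDM and -2.01 ± 0.09 with vehicle. Because Mxd1 rose as well, the ratio of Myc to Mxd1 differed by less, 0.34 ± 0.12 with HDM and -0.61 ± 0.35 with vehicle (1.94-fold). The largest shift was in Myc over Mnt, -1.26 ± 0.08 with HDM and -2.96 ± 0.27 with vehicle (3.24-fold), and Mxd1 over Mnt differed too, at -1.60 ± 0.13 with HDM and -2.34 ± 0.10 with vehicle (1.67-fold). In each of these ratios the groups did not overlap. They repeat the 3 changes above in another form, so no test is given.

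**Figure D3:**
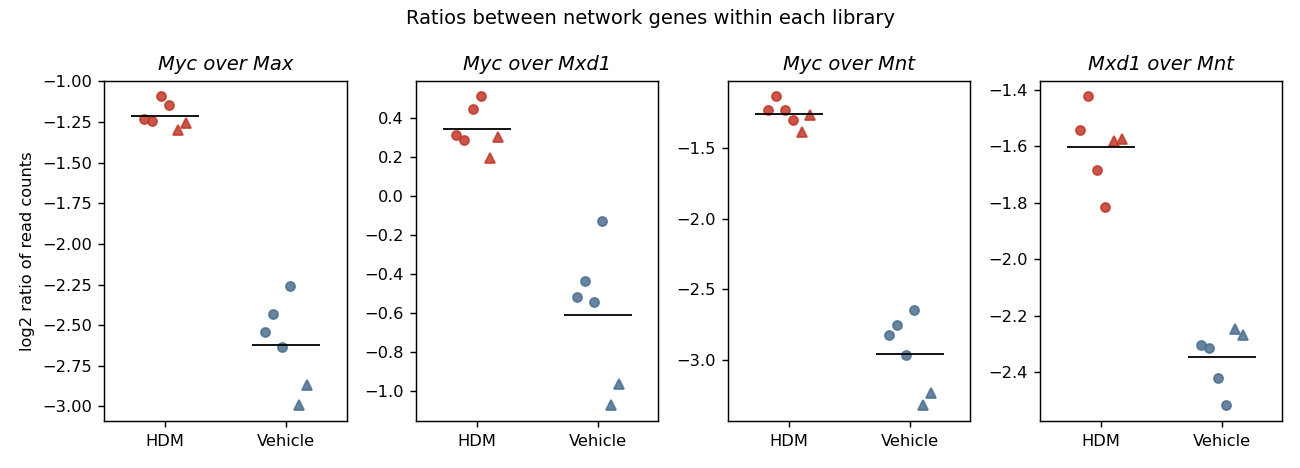
Log2 ratio of read counts of 2 network genes in each library (vertical axis, a separate scale per panel), with HDM left in red, vehicle right in blue, triangles for libraries numbered 5 and 6 and a line at the mean of 6. In the 3 panels with Myc the vehicle triangles are the lowest points, and the HDM points lie above all vehicle points in each panel.

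Levels of different genes were compared per length, as CPM per kb of merged exons in GENCODE M21, an approximation since the sources used here do not name the annotation behind the counts. With HDM the order was Max (18.4 ± 0.498 CPM per kb, SD, n = 6), Mnt (14.8 ± 1.16), Mlx (10.9 ± 0.770), Myc (10.5 ± 0.518), Mga (6.73 ± 0.616), Mxi1 (5.26 ± 0.706), Mxd1 (3.19 ± 0.160), Mxd4 (1.24 ± 0.0867), Mxd3 (0.768 ± 0.272) and Mycl (0.157 ± 0.0872). With vehicle the order was Max (18.6 ± 0.840), Mnt (18.2 ± 0.977), Mlx (10.4 ± 0.412), Mga (6.60 ± 0.930), Mxi1 (5.16 ± 0.619), Myc (4.03 ± 0.622), Mxd1 (2.35 ± 0.230), Mxd4 (1.40 ± 0.113), Mxd3 (0.852 ± 0.285) and Mycl (0.143 ± 0.0847). Myc was thus in place 4 with HDM and place 6 with vehicle, and the other genes kept their order among themselves. With HDM the libraries of Mlx and Myc overlapped, as did those of Mga and Mxi1, while Max lay clear above Mnt. With vehicle Max and Mnt overlapped, as did Mga and Mxi1, and Mxi1 and Myc. By this measure Myc made up 14.6% of the summed network level with HDM and 5.95% with vehicle, and Mnt 20.6% with HDM and 26.9% with vehicle.

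Levels also varied with the library number. In 6 of 10 (Mycl, Max, Mxd1, Mxd3, Mxi1 and Mga) the libraries numbered 5 and 6 lay outside the range of numbers 1 to 4 in both groups, against 36.8% of all tested genes. Mxd3 had 0.893 and 1.16 CPM in HDM libraries 6 and 5 and 2.01 to 2.51 CPM in HDM libraries 1 to 4, against 0.896 and 1.50 CPM in vehicle libraries 6 and 5 and 2.23 to 2.59 CPM in vehicle libraries 1 to 4. Mycl was also lower in numbers 5 and 6, at 0.112 and 0.311 CPM in HDM libraries 6 and 5 and 0.703 to 0.980 CPM in HDM libraries 1 to 4, against 0.290 and 0.104 CPM in vehicle libraries 6 and 5 and 0.566 to 1.06 CPM in vehicle libraries 1 to 4. The other 4 genes were higher there. Mxi1 had 40.9 and 41.5 CPM in HDM libraries 6 and 5 and 28.7 to 35.5 CPM in HDM libraries 1 to 4, against 40.9 and 39.9 CPM in vehicle libraries 6 and 5 and 30.7 to 34.5 CPM in vehicle libraries 1 to 4. The summed level of 24 cell cycle genes was lower in the same libraries, at 1915 and 1934 CPM in HDM libraries 6 and 5 and 2900 to 3136 CPM in HDM libraries 1 to 4, against 1940 and 1987 CPM in vehicle libraries 6 and 5 and 2896 to 3197 CPM in vehicle libraries 1 to 4. Its part in the levels of the network genes was not tested.

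The genes most like Myc across the 12 libraries, out of 10795 tested genes that averaged 1 CPM or more, were Socs3, Phlda1, Fam110a, Nfkbia and Dusp6. Their Pearson correlations of log2 CPM ran from 0.993 to 0.988, given as a description, since the points share the treatment split. All 5 rose with HDM, Socs3 and Nfkbia, feedback inhibitors of cytokine and NF-kB signalling, by 3.30 and 3.50 on the log2 scale (edgeR adjusted p = 2.25e-07 and 3.25e-09). Dusp6, the gene of an ERK phosphatase, rose by 1.22 (adjusted p = 4.93e-06). Those most like Mxd1 were Cish, Gem, Cd14, Fosb and Pnrc1 (0.992 to 0.981). All 5 rose, for example Cish by 2.08 and Cd14 by 1.23 (adjusted p = 4.4e-05 and 0.000162). With the group means subtracted, the 5 genes closest to Myc were Esd, Zc3h12a, Arpc5l, Mlkl and Nifk (0.911 to 0.875), and those closest to Mxd1 were Cish, Rassf8, Npas2, Tnfrsf26 and Hmgn1 (0.965 to 0.950). Subtracting the group means does not remove the split between numbers 5 and 6 and the rest. The part of that split in these correlations was not tested.

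Genes around the network were read from 8 lists of partners, regulators and targets. Together with the mitochondrially encoded genes they hold 153 tested genes, of which 6 rose and 5 fell (18 and 15 with the block). Of all tested genes, 2.90% rose and 2.47% fell (7.90% and 6.81% with the block). These shares are the background for this count and for those of each list below. The median log2 fold change of the 153 genes was 0.001, against -0.005 over all tested genes. Closest to the network itself, Mlxip (60.3 ± 4.64 CPM in HDM libraries and 58.4 ± 4.22 CPM in vehicle libraries, SD, n = 6 each) and Bmyc were at log2 fold changes of 0.05 and 0.04 (edgeR adjusted p = 0.923 and 0.998). Pvt1, the noncoding neighbour of Myc, was at 7.17 ± 0.989 CPM with HDM and 7.94 ± 0.682 CPM with vehicle. Its log2 fold change of -0.15 (95% interval -0.35 to 0.05, edgeR adjusted p = 0.595) was not called and had the opposite sign to the change in Myc. Mycs had 0 reads, and Mlxipl had 28 with HDM and 11 with vehicle.

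Of 25 cofactors of MYC and the MXD proteins, 1 fell (2 with DESeq2 and 2 with limma-voom). The edgeR test called 0 higher, as did limma-voom, and DESeq2 called 1 higher. At an unadjusted p under 0.05, 4 were higher and 4 lower with edgeR. With the block 3 were higher and 4 lower, and the list's median log2 fold change was 0.02. The gene that fell was Cdk9, which encodes the kinase of the elongation factor P-TEFb, at 85.8 ± 3.76 CPM with HDM and 96.1 ± 2.93 CPM with vehicle (log2 fold change -0.16 ± 0.03 SE, edgeR adjusted p = 0.0114, and 0.0576 in numbers 1 to 4 alone). Sap30, a subunit of the SIN3 complex that MXD proteins recruit, stood at -0.25 ± 0.07 (adjusted p = 0.0503, or 9.23e-05 when blocked), and was called without HDM library 6 or vehicle library 4 (0.0141 to 0.0427). The acetyltransferase gene Ep300 was at 0.17 ± 0.05 (0.102, and 0.000268 with the block) and was called without HDM library 1 or vehicle library 5 (0.0337 to 0.0409). Wdr5, whose product anchors MYC to chromatin, was at -0.10 ± 0.03 (0.0964, and 0.0333 with the block) and was called without HDM library 4 (0.0458).

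Of 24 genes that control the life of the MYC protein, the edgeR test called 0 (DESeq2 and limma-voom also 0), with 2 lower at an unadjusted p under 0.05. With the block 3 were higher and 1 lower, and the list's median log2 fold change was 0.01. Skp2, a ubiquitin ligase gene, stood at -0.18 ± 0.08 SE in log2 fold change (adjusted p = 0.32, or 0.0416 when blocked) and Fbxo28 at 0.10 ± 0.05 (0.412, and 0.035 with the block). Huwe1 was at 0.11 ± 0.06 (0.548) and Trim32 at -0.08 ± 0.04 (0.349). Of 12 genes of the repressor complex that holds MGA, which shares Wdr5, Hdac1 and Hdac2 with the cofactors, the edgeR test called 0 (DESeq2 and limma-voom also 0), with 3 higher and 2 lower at an unadjusted p under 0.05. With the block 3 were higher and 1 lower, and the median was -0.01. Rybp stood at 0.17 ± 0.05 (adjusted p = 0.0985, or 0.00852 when blocked, and 0.0473 without vehicle library 6), Yaf2 at 0.13 ± 0.05 (0.206, and 0.0465 with the block) and Hdac2 at 0.10 ± 0.04 (0.168, and 0.0305 with the block).

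Growth genes that MYC is known to activate showed no common direction after 1 h. Of 43 tested, 1 rose and 1 fell (2 and 3 with the block), while 18 had values above 0, and the median log2 fold change was -0.01. The gene that rose was Odc1, which encodes the enzyme that starts polyamine synthesis, with 270 to 370 CPM in the HDM libraries and 169 to 208 CPM in the vehicle libraries. Its log2 fold change was 0.75 ± 0.09 SE (edgeR adjusted p = 0.000162). Gnl3, the gene of the nucleolar protein nucleostemin, fell, with 67.3 to 75.1 CPM in the HDM libraries and 83.8 to 96.0 CPM in the vehicle libraries (-0.36 ± 0.04, adjusted p = 5.16e-05). Wdr43, a ribosome assembly gene, was at -0.09 ± 0.03 (0.0757, and 0.0153 with the block), and Eif4e, the gene of the cap-binding factor, at 0.08 ± 0.04 (0.382).

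Of 10 tested genes that MYC is known to repress, 4 rose and 1 fell (5 and 1 with the block). Over all tested genes, 2.90% were called higher and 2.47% lower (7.90% and 6.81% with the block). The list's median log2 fold change was 0.06. The 4 that rose include cell cycle inhibitors. Cdkn1a (p21) had 514 to 557 CPM in the HDM libraries and 358 to 405 CPM in the vehicle libraries (log2 fold change 0.47 ± 0.04 SE, edgeR adjusted p = 3.32e-06). Cdkn1b (p27) was at 17.4 ± 2.18 CPM with HDM and 12.6 ± 1.41 CPM with vehicle (0.47 ± 0.09, adjusted p = 0.00799). Klf6, an early response factor, rose by 0.85 ± 0.05 (adjusted p = 1.27e-07). Cdkn2b (p15), named after its value was seen, rose by 0.73 ± 0.18 (adjusted p = 0.0333), at 1.45 ± 0.318 CPM with HDM and 0.850 ± 0.188 CPM with vehicle. Its call was lost in 9 of 12 fits that left out 1 library (HDM 1, 2, 3 or 6 and vehicle 1, 2, 4, 5 or 6, adjusted p 0.0552 to 0.0751). Gadd45a, a growth arrest gene, fell by 0.74 ± 0.14 on the log2 scale (adjusted p = 0.00777).

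Targets of MLX and its Mondo partners did not move together. Of 7 tested, 1 rose and 2 fell (3 and 2 with the block), and the median log2 fold change was -0.004. Txnip, which encodes an inhibitor of thioredoxin and of glucose uptake and is the classical MondoA target, had 90.6 to 134 CPM in the HDM libraries and 192 to 266 CPM in the vehicle libraries. It fell by 1.04 ± 0.11 on the log2 scale (edgeR adjusted p = 6.76e-05), with no overlap. Arrdc4, another classical target from the same protein family, was at 46.5 ± 10.01 CPM with HDM and 40.8 ± 7.99 CPM with vehicle (0.19 ± 0.15, adjusted p = 0.751), and with the block it was called higher (0.000894). Hk2, the gene of a hexokinase, rose by 0.24 ± 0.04 (adjusted p = 0.00313), and Pfkfb3, the gene of a glycolytic regulator, fell by 0.22 ± 0.04 (adjusted p = 0.00773). Acaca, a fatty acid synthesis gene, was at 0.13 ± 0.07 (0.447, and 0.0327 with the block).

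Of 24 cell cycle genes the edgeR test called 0, with 1 lower at an unadjusted p under 0.05, 1 lower with DESeq2, 0 with limma-voom and 4 lower with the block. The list's median log2 fold change was -0.02. Cdt1, which licenses replication origins, stood at -0.26 ± 0.08 SE in log2 fold change (adjusted p = 0.0744, or 5.5e-06 when blocked) and was called without HDM library 4 or vehicle library 6 (0.0376 to 0.0497). Mcm7 was at -0.13 ± 0.17 (0.938, and 0.00451 with the block) and Mcm3 at -0.09 ± 0.12 (0.94, and 0.0285 with the block). Ccne2 was at 0.14 ± 0.16 (0.917). The 13 mitochondrially encoded genes summed to 7411 to 13309 CPM with HDM and 6701 to 9029 CPM with vehicle. Of these, ND4L, COX2, COX3, ATP6 and ATP8 had 1 to 26 reads over all HDM libraries and 1 to 17 over all vehicle libraries. The sum therefore rests almost wholly on the 8 that passed the filter. Of these 8, edgeR, DESeq2 and limma-voom each called 0 (0 also at an unadjusted p under 0.05). All 8 had values above 0, with a median log2 fold change of 0.23, and 5 of them were called higher in the blocked fit of neighbouring numbers summed. The part of this shift in the other results was not tested.

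**Figure D4:**
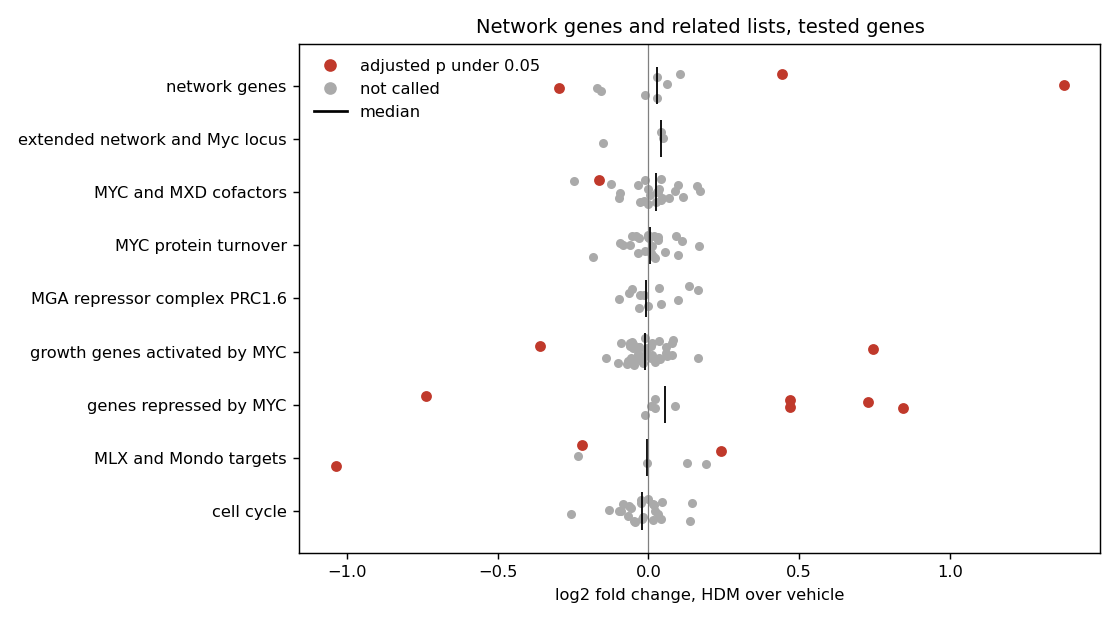
Log2 fold change, HDM over vehicle (horizontal axis), of every tested network gene (top line) and of the tested genes of 8 related lists; red points have an adjusted p under 0.05, grey points do not, and black bars are medians. Myc is the point at 1.38, Txnip the point at -1.04, and the medians lie between -0.02 and 0.06.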

How the data were processed

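Column-purified, DNase-treated RNA went into a stranded mRNA library kit, per the labels' protocols. The authors deposited unscaled read counts, 1 table for all genes and libraries. The submitters' processing notes name, with no roles or order, FastQC 0.12.1, STAR 2.6.0c, Subread, featureCounts 2.0.6, cutadapt 4.5 and Trim Galore 0.6.10, and list both GRCm38 and mm39 without saying which was used for what. Coordinates and exon lengths printed here are from GENCODE M21 (GRCm38), matched by symbol.

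Counts were tested across all genes with edgeR 4.0.16 (quasi-likelihood F test, TMM factors, filterByExpr, group as the only term, two-sided, R 4.3.3). Benjamini-Hochberg adjustment ran over 13530 genes, and called means an adjusted p under 0.05. CPM uses TMM factors. The standard error is the absolute log2 fold change divided by the square root of F. The procedure was tested on simulated data. Alternatives used DESeq2 1.42.0 and limma 3.58.1. Members, lists and tests were chosen with earlier results of these data known. Named genes are all members, up to 4 per list with the smallest p, Pvt1, Mlxip, Txnip and Arrdc4, and the 5 genes most like Myc and Mxd1, gene models without a descriptive symbol left out.

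Both groups carry the numbers 1 to 6. Deviations from the group means correlated at 0.347 to 0.652 between HDM and vehicle libraries of equal number, all above the bound of 0.1. The numbers were therefore used as a block in alternative fits, though the labels give no pairing. Libraries of unequal number within 1 to 4 or within 5 and 6 correlated at 0.177 to 0.685, also above the bound. Those across that divide correlated at -0.534 to -0.352. The bound thus cannot tell pairing by number from the split between numbers 5 and 6 and the rest. Of 6 HDM libraries, 2 correlated best with their own number, and of 6 vehicle libraries, 3 did. No 2 libraries of a group agreed within counting error (chi-square per gene at least 2.27, where 1 is counting error alone). Numbers 3 and 4 were close to each other (2.27 with HDM and 4.06 with vehicle), as were numbers 5 and 6 (3.56 and 2.92). All other pairs lay at 6.90 to 96.1. Whether the libraries amount to 6 independent samples a group was not tested.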

Additional observations from a re-analysis of the deposited data

Results flagged for a closer look

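The Mxd4 level of vehicle library 3, 10.02 CPM, lies far below the other 5 vehicle libraries of that gene, by Dixon's criterion for 6 samples. Among the 20 groups examined (10 genes in 2 treatments), chance flags about 1 in 20.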

How the results depend on the processing

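The changes of Myc, Mxd1 and Mnt kept their direction in all 24 alternatives, Myc at a log2 fold change of 1.28 to 1.61, Mxd1 at 0.36 to 0.49 and Mnt at -0.33 to -0.25. Myc was called in all 24, and Mxd1 and Mnt in 23. The exception was the fit that summed neighbouring numbers to 3 samples a group, which gave 0.44 for Mxd1 (adjusted p = 0.148) and -0.29 for Mnt (0.24), called 1 network gene higher and 0 lower, and called 87 genes higher and 32 lower over all genes; the cause was not tested. With the summed number as a block, added after seeing the data, Mxd1 and Mnt were called (7.77e-06 and 3.03e-05), Mxd4 was not (0.0719), and the counts were 910 and 746. With the replicate block, Mxd4 at -0.17 was called, so 2 network genes were lower, and the counts over all genes were 1069 and 921; it changed no other call of a network gene. Fits of numbers 1 to 4 gave 683 genes higher, and fits of numbers 5 and 6 gave 567 lower. Without each library in turn, 2 network genes were higher and 1 lower in every fit. Related genes of all lists called higher and lower were 18 and 15 with the block, 10 and 10 in numbers 5 and 6, 12 higher in numbers 1 to 4, 2 and 1 with neighbouring numbers summed, 19 and 8 with these also blocked, and 8 lower with DESeq2. Of the uncalled genes, Mxd3, Mxd4 and Mlx kept their sign in all 24, Max in 22, Mxi1 in 21, Mga in 20 and Mycl in 19. The fewest reads stood behind Mycl, with 2 to 118 per library, and Mxd3, with 29 to 271. Their standard errors were 0.47 and 0.29 without the block and 0.24 and 0.10 with it. The part of depth in these errors was not tested.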
